A study of Homo sapiens with 12 samples.

Results

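The genes described here are 35 genes of the response to stress in the endoplasmic reticulum (ER), the compartment in which secreted and membrane proteins fold. They were listed by name, leaving out chaperones of the HSP and DNAJ families. The list is by function and applies no cutoff on a measured value, but it was drawn up with earlier results of these data known. Of the 35, 34 had a row assigned to 1 gene symbol, out of 18417 genes measured. PDIA3, a thiol oxidoreductase, was found only in a row shared by several genes and is not analysed here. ATF4 and P4HB had 2 rows each, of which the one with the higher mean over all arrays was used.

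The cells were HEL and UKE1, 2 established human myeloid leukemia lines that carry JAK2V617F, a mutation that leaves the kinase JAK2 active without cytokine. ITF2357 (givinostat), an inhibitor of histone deacetylases, was given to each line at 250 nM for 6 h, beside untreated cultures. There were 3 arrays for each of the 4 groups, 12 in all, described in the series as independent triplicates. Each group is thus 1 cell line at 1 time and at most 1 dose. All cultures received 10% fetal calf serum; UKE1 medium, with and without drug, also held 10% horse serum, HEPES and 10 µM hydrocortisone. A difference between the lines and a difference between their media cannot be told apart.

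Levels are log2 values of whole-transcript arrays, and changes are log2 differences between group means with the standard error (SE) of a fit over all arrays. A gene is said to have risen, fallen or changed where its adjusted p was under 0.05 over the 18417 genes (limma, Benjamini-Hochberg). These p-values rest on the spread among the arrays of a group, part of which may be technical. Arrays of a group correlated at r = 0.994 to 0.996 and no array stood apart. The values carry no detection call, so no gene is called absent. Levels are compared between groups for 1 gene and not between genes, except where a mean is set beside the median of all genes.

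Of 10 erythroid markers measured, 9 were lower and 1 higher in untreated UKE1 than in untreated HEL, against 34.4% and 33.3% of all genes. The embryonic globin HBE1 had a mean level of 12.95 in HEL and 5.19 in UKE1. Of 7 megakaryocyte markers, 6 were lower in UKE1 (34.4% of all genes) and 1 was higher, by 4.04. Markers of plasma and B cells, secretory cells in which the ER is large, were higher in UKE1 for 6 of 9. T-cell markers were higher for 4 of 6 and lower for 1, against 33.3% and 34.4% of all genes. Of 5 monocyte markers 2 were higher and 2 lower, and of 5 fibroblast markers 1 was higher and 0 lower. The mean over the 9 plasma and B-cell markers ranged from 4.82 to 4.99 on untreated HEL arrays and from 6.08 to 6.21 on untreated UKE1 arrays. With ITF2357 it ranged from 4.86 to 4.94 in HEL and from 6.16 to 6.27 in UKE1. Of these 9 markers, 0 had a mean above the median of all genes in untreated HEL and 3 in untreated UKE1. Megakaryocyte markers moved with the drug: of 7, 4 fell in HEL (19.9% of all genes) and 5 in UKE1 (22.3%), and 0 rose in either line. Their mean level ranged from 9.43 to 9.58 on untreated and from 8.93 to 8.9965 on treated HEL arrays, and from 8.95 to 9.08 and from 8.57 to 8.66 in UKE1. Of 10 erythroid markers, 2 rose and 2 fell in HEL (22.6% and 19.9% of all genes), and 0 rose and 1 fell in UKE1 (22% and 22.3%). Of 9 plasma and B-cell markers, 1 rose and 2 fell in HEL, and 1 rose and 1 fell in UKE1. Their log2 changes in UKE1 ranged from -0.52 to 1.28. Of 6 T-cell markers, 1 fell in HEL and 3 in UKE1, and 0 rose. Of 5 monocyte markers, 1 rose in each line and 2 fell in UKE1. The monocyte mean in UKE1 ranged from 7.93 to 8.06 on untreated and from 7.62 to 7.69 on treated arrays.

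Membrane sensors of 3 kinds watch the ER lumen for unfolded protein. IRE1 (ERN1) splices the mRNA of XBP1, PERK (EIF2AK3) phosphorylates the initiation factor eIF2 and so slows translation while that of ATF4 goes up, and ATF6 is cut in the Golgi to release a transcription factor. The factors they activate raise chaperones, oxidoreductases and the machinery of ER-associated degradation, which moves misfolded proteins to the proteasome. Long activation of the PERK arm raises DDIT3 (CHOP), a factor linked to cell death. ATF4 also answers to amino acid shortage and heme shortage through other eIF2 kinases, the latter well known in erythroid cells.

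Promoter sequence was searched for exact matches to elements that the 3 arms are known to read. RefSeq promoters of GRCh38.p14, from 250 bases before to 50 bases after a start, were found for 32 of the 34 genes. DERL1 and DERL3 had no entry. Only exact matches inside these windows were counted, so a gene without a match is not said to lack such a site. Searched on both strands, the ER stress element ERSE (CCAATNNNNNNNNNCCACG), read by ATF6 with NF-Y, was present in 5 of the 32 genes. These were XBP1, PDIA6, CANX, ERO1B and CRELD2. Over all 27305 genes with a promoter, 25 had it (0.0916%), in 27 of 35116 windows (0.0769%). The related ERSE-II (ATTGGNCCACG) was present in 3 of 32 genes, HERPUD1, HYOU1 and SDF2L1, against 19 of 27305 (0.0696%) and 0.0541% of windows. Several of these genes are textbook targets of ATF6 and XBP1, so the shares are a description and no test. The stretches below are printed 5′ to 3′ on the gene's strand, with the fixed letters of each match in capitals. The XBP1 stretch lies at chr22:28800578-28800646 on the minus strand, that of CRELD2 at chr22:49918529-49918597 on the plus strand and that of ERO1B at chr1:236282158-236282208 on the minus strand. The HERPUD1 stretch lies at chr16:56932000-56932060 on the plus strand, that of HYOU1 at chr11:119057249-119057415 on the minus strand and that of SDF2L1 at chr22:21642089-21642149 on the plus strand.
XBP1, ERSE: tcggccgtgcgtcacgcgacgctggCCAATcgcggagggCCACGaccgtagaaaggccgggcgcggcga
CRELD2, ERSE on the opposite strand: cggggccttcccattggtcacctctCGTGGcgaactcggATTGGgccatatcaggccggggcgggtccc
ERO1B, ERSE on the opposite strand: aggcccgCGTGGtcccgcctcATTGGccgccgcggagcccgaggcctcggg
HERPUD1, ERSE-II: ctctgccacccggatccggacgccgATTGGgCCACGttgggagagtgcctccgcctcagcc
HYOU1, ERSE-II on the opposite strand, 2 matches: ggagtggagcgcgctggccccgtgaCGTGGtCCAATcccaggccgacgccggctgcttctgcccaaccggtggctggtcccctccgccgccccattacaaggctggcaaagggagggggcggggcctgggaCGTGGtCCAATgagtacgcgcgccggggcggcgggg
SDF2L1, ERSE-II on the opposite strand: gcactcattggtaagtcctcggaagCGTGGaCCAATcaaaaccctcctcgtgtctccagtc

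The combined C/EBP-ATF site (TGATGNAA), bound by ATF4 with a C/EBP partner, was present in 5 of 32 genes: ASNS, CHAC1, PPP1R15B, HERPUD1 and CREB3L2. Of all genes 4.46% had it, and of all windows 3.62%. The UPRE (TGACGTGG) was present in 1 gene, HYOU1, where it overlaps the upstream ERSE-II match, against 0.927% of all genes and 0.729% of windows. The ASNS stretch lies at chr7:97872444-97872501 on the minus strand and that of CHAC1 at chr15:40953237-40953294 on the plus strand. The PPP1R15B stretch lies at chr1:204412012-204412067 on the minus strand and this HERPUD1 stretch at chr16:56931941-56931998 on the plus strand.
ASNS, C/EBP-ATF site: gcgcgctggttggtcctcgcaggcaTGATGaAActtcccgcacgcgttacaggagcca
CHAC1, C/EBP-ATF site on the opposite strand: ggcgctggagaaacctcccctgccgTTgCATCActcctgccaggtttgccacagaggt
PPP1R15B, C/EBP-ATF site: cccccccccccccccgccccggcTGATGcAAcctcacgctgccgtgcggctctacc
HERPUD1, C/EBP-ATF site on the opposite strand: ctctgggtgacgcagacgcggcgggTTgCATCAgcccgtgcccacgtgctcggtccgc

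The response of the 34 genes to ITF2357 was mixed in direction and mostly small. In HEL, 13 rose, 6 fell and 15 were not called, while 22.6% of all genes rose and 19.9% fell. In UKE1, 17 rose, 5 fell and 12 were not called, against 22% and 22.3% of all genes. The median log2 change of the 34 genes was 0.05 in HEL and 0.15 in UKE1, and that of all genes was -0.01 and 0.01. The median size of the change, without its sign, was 0.19 in HEL and 0.24 in UKE1, against 0.17 and 0.18 over all genes. Only ERO1A in HEL passed a log2 change of 1. The marker changes with ITF2357 given above, among them falls of megakaryocyte markers, accompany these responses, and their part in them was not tested. In HEL the ranges of treated and untreated arrays were apart for 21 of the 34 genes (49% of all genes), and in UKE1 for 25 of 34 (53.9%).

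Between the lines, 12 of the 34 genes rose in both, 2 fell in both and 1, HERPUD1, went in opposite directions. Over all genes, 14% rose in both lines, 12.9% fell in both and 2.1% were called in opposite directions. The 12 are 12 of the 13 that rose in HEL and 12 of the 17 that rose in UKE1. They were ERN1, EIF2AK3, ATF6, DDIT3, PPP1R15B, SEL1L, SYVN1, EDEM1, EDEM2, ERO1A, ERO1B and CRELD2. The UKE1 calls of ERO1A, EDEM2 and ERO1B and the HEL calls of PPP1R15B and CRELD2 were lost in some alternative fits, given below. XBP1 and ATF5 fell in both.

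All 3 sensors rose in both lines, as did 14% of all genes. ERN1 read 7.86, 7.85 and 7.86 on untreated HEL arrays and 8.13, 8.09 and 8.23 with ITF2357, a log2 change of 0.29 ± 0.0751 (SE, adjusted p = 0.00587). Its UKE1 values were 6.52, 6.52 and 6.67 without drug and 6.99, 7.11 and 6.84 with it, a change of 0.41 ± 0.0751 (adjusted p = 0.00044). No treated array of either line overlapped its untreated arrays, and the UKE1 arrays all lay below the HEL arrays.

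EIF2AK3, which encodes PERK, read 8.33, 8.27 and 8.02 on untreated HEL arrays and 8.57, 8.59 and 8.57 with drug, a change of 0.37 ± 0.076 (adjusted p = 0.00115). The UKE1 values were 8.16, 8.03 and 8.04 without and 8.41, 8.42 and 8.47 with drug, a change of 0.36 ± 0.076 (adjusted p = 0.00146). The 3 treated arrays lay close together in each line while untreated HEL arrays spread more widely (SD 0.162, n = 3).

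ATF6 read 10.31, 10.42 and 10.26 on untreated HEL arrays and 10.68, 10.68 and 10.61 with drug, a change of 0.32 ± 0.0621 (adjusted p = 0.000656). In UKE1 it went from 10.27, 10.33 and 10.39 to 10.56, 10.61 and 10.63, a change of 0.27 ± 0.0621 (adjusted p = 0.00255). Its levels in the 2 lines overlapped both before and after the drug. The sensors' responses did not pass the test of a difference between lines (adjusted p = 0.479 for ERN1, 0.948 for EIF2AK3 and 0.712 for ATF6), with 95% intervals of the difference from -0.11 to 0.35, -0.25 to 0.22 and -0.24 to 0.14.

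The transcription factors below the sensors did not follow one direction. XBP1, the substrate of IRE1, read 10.45, 10.44 and 10.38 on untreated HEL arrays and 10.14, 9.99 and 10.11 with drug, and fell by 0.34 ± 0.0651 (SE, adjusted p = 0.000586). The UKE1 arrays read 10.83, 10.79 and 10.79 without and 10.15, 10.24 and 10.05 with drug, and fell by 0.65 ± 0.0651 (adjusted p = 1.66e-06), or 1.57-fold. Untreated UKE1 arrays all lay above untreated HEL arrays, and the treated arrays of the 2 lines overlapped. A row for the whole gene does not separate spliced from unspliced XBP1 mRNA.

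ATF5, a relative of ATF4 that is translated under the same control, had the largest fall among the 34 genes in each line. It read 8.02, 7.88 and 7.90 on untreated HEL arrays and 7.07, 7.09 and 6.93 with drug, a change of -0.90 ± 0.113 (adjusted p = 1.49e-05). In UKE1 it went from 6.98, 6.81 and 6.93 to 5.83, 6.30 and 5.79, a change of -0.94 ± 0.113 (adjusted p = 9.93e-06). The treated UKE1 arrays were the most spread of the 4 groups, with replicate 2 above the other 2 (SD 0.286, n = 3).

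ATF4 itself differed little. Its arrays read 11.42, 11.48 and 11.40 in untreated HEL and 11.28, 11.22 and 11.25 with drug, a change of -0.18 ± 0.0641 (adjusted p = 0.0349). This call was lost without untreated HEL replicate 1 or 2 or without any of the 3 treated HEL arrays (adjusted p = 0.0550 to 0.113), and after quantile normalization (0.0607), median centring (0.0750) or a fit of HEL arrays alone (0.0575). In UKE1 it read 10.75, 10.83 and 10.72 without and 10.78, 10.71 and 10.58 with drug, with overlapping groups (-0.08 ± 0.0641, adjusted p = 0.367). The second ATF4 row differed by -0.32 in HEL and -0.11 in UKE1. ATF4 is controlled mainly through its translation, which arrays do not measure.

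DDIT3, the PERK-arm factor linked to cell death, rose in both lines. It read 8.99, 8.92 and 8.81 on untreated HEL arrays and 9.41, 9.13 and 9.42 with drug (0.42 ± 0.101, adjusted p = 0.00384). On UKE1 arrays it read 7.12, 7.33 and 7.08 without and 7.67, 7.96 and 7.74 with drug (0.62 ± 0.101, adjusted p = 0.000163). Every treated array lay above the untreated arrays of its line, while treated UKE1 arrays stayed below all untreated HEL arrays.

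CREB3L2, a membrane-bound factor of the ATF6 type, read 9.05, 8.998 and 9.11 on untreated HEL arrays and 9.07, 9.34 and 9.27 with drug, and the groups overlapped (0.17 ± 0.0853, adjusted p = 0.123). Without treated HEL replicate 1 the adjusted p was 0.0311. In UKE1 it rose from 8.37, 8.57 and 8.64 to 8.82, 8.88 and 8.76 (0.29 ± 0.0853, adjusted p = 0.0119), a call that was lost without untreated UKE1 replicate 1 (0.0636).

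**Figure D1:**
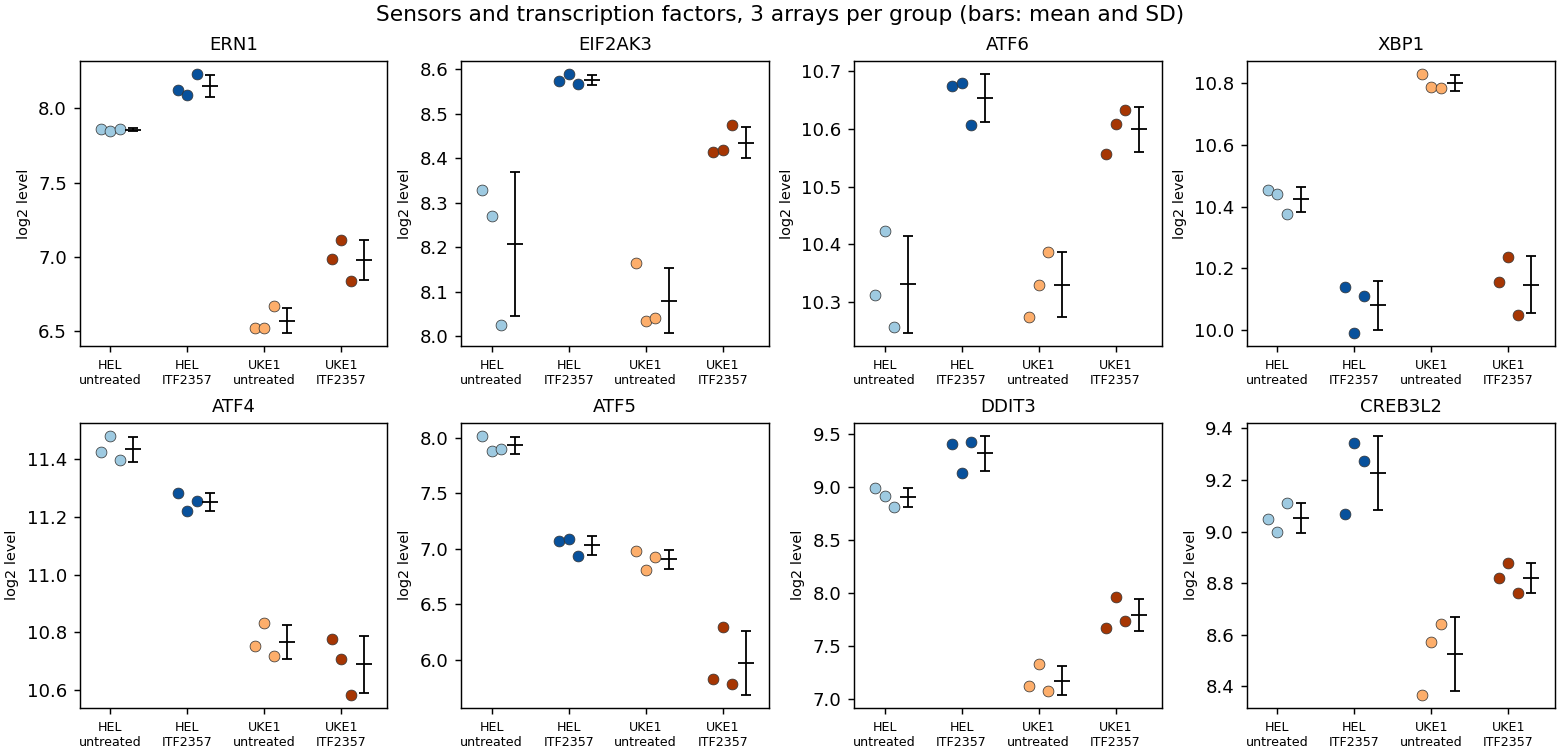
Log2 levels of the 3 sensors and the 5 transcription factors on every array (points, replicates 1 to 3 from left to right) in the 4 groups, with the mean and SD (bars, n = 3). Treated arrays of ERN1, EIF2AK3, ATF6 and DDIT3 lie above, and those of XBP1 and ATF5 below, the untreated arrays of the same line; each panel has its own scale.

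Of 5 genes of ATF4 output and eIF2 dephosphorylation, ASNS and TRIB3 differed between the lines in their response, and the other 3 did not pass that test. ASNS, which makes asparagine and is a classical ATF4 target, read 8.14, 7.97 and 7.90 on untreated HEL arrays and 7.51, 7.52 and 7.58 with drug, a change of -0.47 ± 0.0664 (SE, adjusted p = 5.08e-05). In UKE1 it read 6.86, 6.77 and 6.78 without and 6.87, 6.87 and 6.85 with drug (0.06 ± 0.0664, adjusted p = 0.533). TRIB3, a pseudokinase induced by ATF4 and DDIT3, likewise fell in HEL from a mean of 7.91 ± 0.0937 to 7.47 ± 0.143 (SD, n = 3), a change of -0.45 (adjusted p = 0.000403). In UKE1 it was 6.81 ± 0.0937 without and 6.81 ± 0.0527 with drug (adjusted p = 0.985).

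CHAC1, which breaks down glutathione, had a change of 0.05 in HEL (adjusted p = 0.712). It rose in UKE1 by 0.26 (adjusted p = 0.025), a call lost without untreated UKE1 replicate 2 (0.121), without treated UKE1 replicate 3 (0.0902) or in a fit of UKE1 arrays alone (0.0626). Of the 2 subunits that direct phosphatase to eIF2, the constitutive PPP1R15B rose in HEL by 0.16 (adjusted p = 0.0363) and in UKE1 by 0.32 (adjusted p = 0.000351). The HEL call was weak: it was lost without each of the 6 HEL arrays in turn, without treated UKE1 replicate 2 (0.0508 to 0.0898 over these 7 fits), or with HEL arrays alone (0.0819).

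PPP1R15A (GADD34), the inducible subunit that restores translation, had a change of -0.05 in HEL (adjusted p = 0.605) and rose in UKE1 by 0.24 (adjusted p = 0.0143). The UKE1 call was lost without untreated UKE1 replicate 1 (0.0618) or treated UKE1 replicate 2 (0.0704). Thus of these 5 genes 1 rose and 2 fell in HEL (22.6% and 19.9% of all genes), and 3 rose and 0 fell in UKE1 (22% and 22.3%). The genes with a C/EBP-ATF site went both ways: in HEL ASNS fell while PPP1R15B and HERPUD1 rose, and in UKE1 HERPUD1 fell while PPP1R15B, CHAC1 and CREB3L2 rose.

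Among the 9 genes of ER-associated degradation, 5 rose and 0 fell in HEL (22.6% and 19.9% of all genes), and 4 rose and 2 fell in UKE1 (22% and 22.3%), the falls in UKE1 being near the share over all genes. SEL1L and SYVN1 (HRD1), the scaffold and the ubiquitin ligase of 1 membrane complex, rose together in both lines. SEL1L read 9.31, 9.39 and 9.13 on untreated HEL arrays and 9.71, 9.79 and 9.75 with drug (0.48 ± 0.0687, SE, adjusted p = 5.58e-05). In UKE1 it read 9.83, 9.79 and 9.76 without and 10.43, 10.48 and 10.52 with drug (0.68 ± 0.0687, adjusted p = 1.79e-06), the largest increase among the 34 genes in that line. SYVN1 read 8.04, 8.03 and 8.13 on untreated HEL arrays and 8.50, 8.45 and 8.63 with drug (0.46 ± 0.0715, adjusted p = 0.000116). Its UKE1 arrays read 8.05, 7.83 and 7.96 without and 8.44, 8.51 and 8.52 with drug (0.54 ± 0.0715, adjusted p = 2.38e-05). Neither gene's groups overlapped in either line.

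HERPUD1, a membrane protein that binds this complex and is an early target of ER stress, went in opposite directions. It read 10.06, 10.00 and 9.93 on untreated HEL arrays and 10.56, 10.57 and 10.61 with drug, a rise of 0.58 ± 0.0569 (adjusted p = 1.54e-06). Its UKE1 arrays stood at 9.15, 9.08 and 9.15 without and 8.83, 8.82 and 8.78 with drug, and fell by 0.32 ± 0.0569 (adjusted p = 0.000368). The 4 groups did not overlap, so that the drug moved the lines further apart.

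EDEM1 and EDEM2, which trim mannose from glycoproteins bound for degradation, rose in both lines. EDEM1 rose by 0.36 in HEL (adjusted p = 0.000639) and by 0.28 in UKE1 (adjusted p = 0.00451). EDEM2 rose by 0.47 in HEL (adjusted p = 0.000125) and by 0.22 in UKE1 (adjusted p = 0.0273). The UKE1 call of EDEM2 was lost without untreated UKE1 replicate 2 or 3, without treated UKE1 replicate 1 (0.0604 to 0.117), or after median centring (0.0715). EDEM3 had changes of 0.07 and 0.11 that did not pass the test (adjusted p = 0.544 and 0.333).

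The derlins, membrane proteins of the exit channel, behaved otherwise. DERL1 had a change of -0.01 in HEL (adjusted p = 0.902) and fell in UKE1 from 9.81 ± 0.0511 to 9.53 ± 0.0166 (SD, n = 3), by 0.28 (adjusted p = 0.000585). DERL2 (-0.08 in HEL and -0.04 in UKE1) and DERL3 (0.06 and -0.07) did not pass the test in either line, with adjusted p from 0.29 to 0.64.

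Of the 10 folding and redox genes, 3 rose and 1 fell in HEL (22.6% and 19.9% of all genes), and 4 rose and 1 fell in UKE1 (22% and 22.3%). The largest changes in HEL were those of ERO1A and ERO1B, the oxidases that pass oxidizing equivalents to protein disulfide isomerases. ERO1A read 8.35, 8.46 and 8.24 on untreated HEL arrays and 9.38, 9.44 and 9.39 with drug, a 2.07-fold rise (log2 1.05 ± 0.0669, SE, adjusted p = 3.41e-08). In UKE1 it read 9.56, 9.51 and 9.43 without and 9.63, 9.72 and 9.68 with drug (0.18 ± 0.0669, adjusted p = 0.0469). Treated HEL arrays thus came close to, and partly overlapped, the level of untreated UKE1 arrays. The UKE1 call was marginal: it was lost without untreated UKE1 replicate 2 or 3, any of the 3 treated UKE1 arrays, any of the 3 treated HEL arrays or untreated HEL replicate 1 (0.0537 to 0.163), or after median centring (0.117).

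ERO1B read 7.14, 7.23 and 7.04 on untreated HEL arrays and 8.05, 8.002 and 7.95 with drug, a 1.82-fold rise (log2 0.86 ± 0.0664, adjusted p = 1.78e-07). The UKE1 values were lower, at 6.51, 6.54 and 6.43 without and 6.65, 6.77 and 6.75 with drug (0.23 ± 0.0664, adjusted p = 0.012). This second call was lost without untreated UKE1 replicate 3 (0.0517) or treated UKE1 replicate 2 (0.0510). The groups overlapped in neither line, and all UKE1 arrays lay below the untreated HEL arrays.

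Of the disulfide isomerases, which these oxidases serve, the 3 among the 34 genes were not called higher in either line. PDIA4 fell by 0.27 in HEL (adjusted p = 0.00329) and had a change of -0.08 in UKE1 (adjusted p = 0.361). PDIA6 had a change of 0.00 in HEL (adjusted p = 0.981) and fell by 0.19 in UKE1 (adjusted p = 0.0255). The PDIA6 call was lost without untreated UKE1 replicate 1 or 3 or treated UKE1 replicate 3 (0.0558 to 0.103). P4HB, which is also a subunit of the collagen prolyl hydroxylase, had changes of -0.06 and 0.11 (adjusted p = 0.463 and 0.147). With a trended robust variance P4HB passed in UKE1 (0.0438). Its second row differed by -0.14 in HEL and 0.11 in UKE1.

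CRELD2, a secreted ER stress protein, rose from 7.80, 7.65 and 7.76 to 7.95, 7.94 and 7.93 in HEL (0.21 ± 0.0587, SE, adjusted p = 0.0106). In UKE1 it went from 7.64, 7.53 and 7.56 to 8.16, 8.13 and 8.10 (0.55 ± 0.0587, adjusted p = 2.97e-06). Every treated array lay above the untreated arrays of its line; without untreated HEL replicate 2 the HEL call was lost (0.0551). MANF, a small secreted protein of the same response, had a change of 0.04 in HEL (adjusted p = 0.691) and rose by 0.22 in UKE1 (adjusted p = 0.0123), a call lost without treated UKE1 replicate 1 (0.0617).

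HYOU1, an exchange factor for the chaperone BiP, had changes of 0.06 in HEL and 0.13 in UKE1 (adjusted p = 0.518 and 0.116), and passed in UKE1 with a trended robust variance (0.0479). The lectin chaperone CANX had changes of -0.03 and 0.06 (adjusted p = 0.742 and 0.456). SDF2L1, which works with DNAJ proteins in the ER, had changes of -0.17 and -0.18 (adjusted p = 0.107 and 0.0814). Without treated HEL replicate 3, SDF2L1 passed the test in HEL (0.0422), and in UKE1 it passed after median centring (0.0457) or with a filter on low values (0.0381). Genes with an ERSE also went both ways: in each line XBP1 fell while ERO1B and CRELD2 rose, and CANX was not called in either. PDIA6, which also has an ERSE, was not called in HEL and fell in UKE1. HYOU1 and SDF2L1, which share the ERSE-II with HERPUD1, were called in neither line.

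WFS1, an ER membrane protein of calcium balance, was the 1 gene of the 34 whose mean lay below the median of all genes in every group. It read 5.48, 5.63 and 5.41 on untreated HEL arrays and 5.31, 5.42 and 5.30 with drug (-0.17 ± 0.0746, SE, adjusted p = 0.0918). In UKE1 it rose from 5.84, 5.83 and 5.64 to 6.29, 6.27 and 6.24 (0.50 ± 0.0746, adjusted p = 7.7e-05). The HEL arrays overlapped, and the treated UKE1 arrays lay above all others. SEC61B, a subunit of the channel through which proteins enter the ER, had changes of -0.07 and 0.08 (adjusted p = 0.483 and 0.355).

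**Figure D2:**
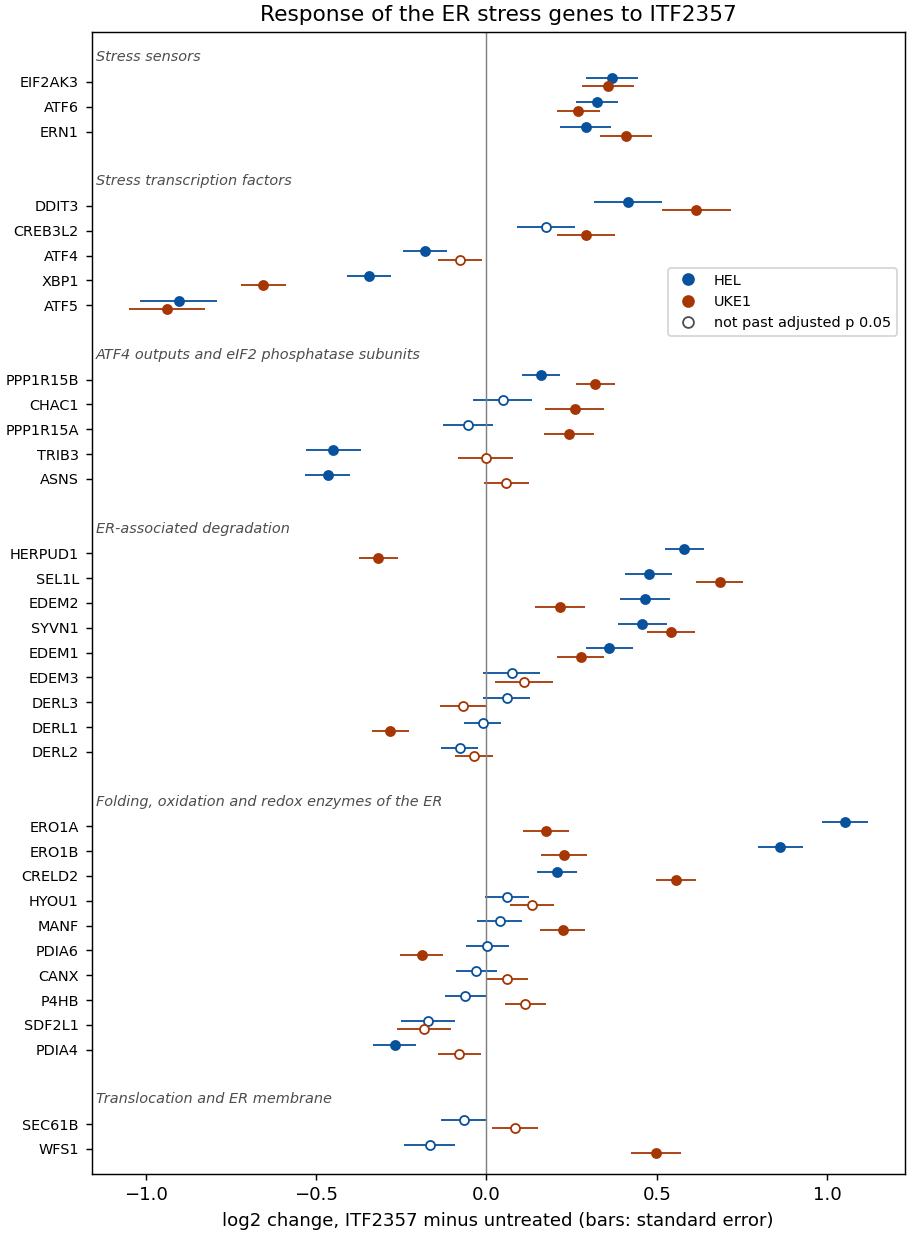
Log2 changes (ITF2357 minus untreated) of the 34 genes in HEL (blue) and UKE1 (brown), grouped by role and ordered by the change in HEL within each role, with standard errors of the fit as bars. Filled points passed an adjusted p of 0.05; the 3 sensors lie right of 0 in both lines, HERPUD1 lies on opposite sides, and ERO1A in HEL, at 1.05, is farthest from 0.

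The test of the difference between the responses asked which genes answered the drug differently in the 2 lines. Of the 34 genes 4 had a more positive change in UKE1 (10.1% of all genes) and 5 a more negative one (13.8%). Both counts are near the share over all genes. Over all genes called, the more positive differences made up 42.2% as deposited and 30.6% after median centring. For the 34 genes the counts were 4 and 5 under both of these scalings, and 5 and 5 after quantile normalization.

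The 3 largest negative differences were those of HERPUD1 (-0.90 ± 0.0805, SE, adjusted p = 4.26e-06), ERO1A (-0.88 ± 0.0946, adjusted p = 2.14e-05) and ERO1B (-0.63 ± 0.094, adjusted p = 0.00028). The oxidases rose in both lines and more in HEL, whereas HERPUD1 rose in HEL and fell in UKE1. XBP1 fell more in UKE1 (-0.31, adjusted p = 0.0258), and the fall of DERL1 in UKE1 differed from its change in HEL (-0.27, adjusted p = 0.0191). XBP1 lost this call without untreated HEL replicate 3, treated HEL replicate 1 or 3, untreated UKE1 replicate 1 or treated UKE1 replicate 3 (0.0527 to 0.0655), and DERL1 without untreated UKE1 replicate 1 (0.0515).

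The largest positive difference was that of WFS1 (0.66 ± 0.106, adjusted p = 0.000469), followed by ASNS (0.52 ± 0.0939, adjusted p = 0.00115) and TRIB3 (0.45 ± 0.115, adjusted p = 0.0121). CRELD2 rose more in UKE1 (0.35 ± 0.0831, adjusted p = 0.00791). PPP1R15A lay just outside the threshold at 0.30 ± 0.103 (adjusted p = 0.0517). It passed without treated HEL replicate 3, untreated UKE1 replicate 3 or treated UKE1 replicate 3 (0.0243 to 0.0374), after quantile normalization (0.0347), with a filter on low values (0.0207) and with a trended robust variance (0.0205). SEL1L passed in 1 fit, without untreated HEL replicate 3 (0.0321), against 0.145 with all arrays.

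**Figure D3:**
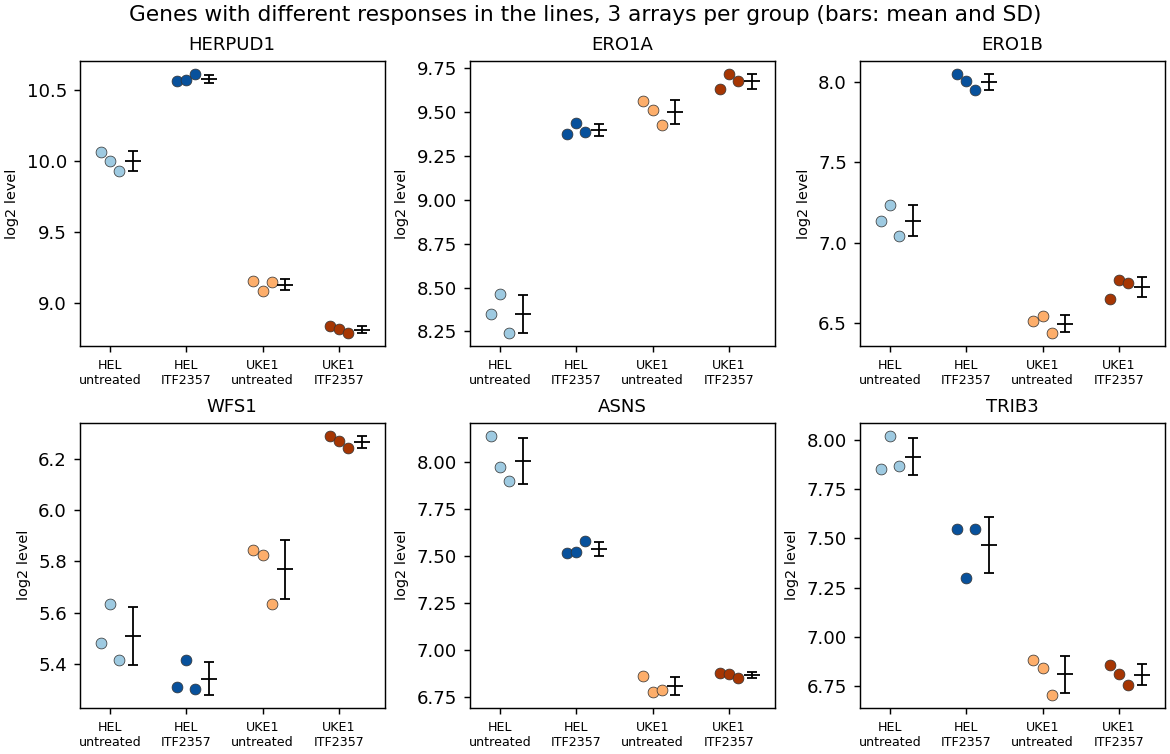
Log2 levels of 6 of the 9 genes whose responses differed between the lines, on every array (points, replicates 1 to 3 from left to right) in the 4 groups, with the mean and SD (bars, n = 3). HERPUD1 moves up in HEL and down in UKE1, ERO1A and ERO1B move mainly in HEL, WFS1 moves up in UKE1, and ASNS and TRIB3 move down in HEL; each panel has its own scale.

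The untreated lines were also compared with each other. In untreated UKE1 24 of them were lower than in untreated HEL and 5 were higher, against 34.4% and 33.3% of all genes. Their median difference was -0.51, and that of all genes was 0.00 to 2 decimals. The median size of the difference was 0.65 for the 34 genes and 0.35 for all genes. The marker differences given above accompany this difference, and their part in it was not tested. In UKE1, most erythroid and megakaryocyte markers were lower, and most plasma, B-cell and T-cell markers were higher. Against these directions, 1 erythroid and 1 megakaryocyte marker were higher and 1 T-cell marker was lower. In bulk RNA, fewer cells that express a gene and less RNA per cell cannot be told apart.

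PPP1R15A, the inducible phosphatase subunit, was farthest apart. It read 9.94, 9.87 and 9.90 on untreated HEL arrays and 7.47, 7.52 and 7.64 on untreated UKE1 arrays, 5.14-fold lower (log2 -2.36 ± 0.073, SE, adjusted p = 1.76e-12). HYOU1 read 11.21, 11.21 and 11.32 in HEL and 9.37, 9.32 and 9.47 in UKE1, 3.63-fold lower (-1.86 ± 0.0646, adjusted p = 6.38e-12). These 2 genes were picked for full values after their differences were seen. DDIT3 was 3.32-fold lower in UKE1 (-1.73, adjusted p = 1.84e-09) and ERN1 2.44-fold lower (-1.29, adjusted p = 1.91e-09).

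By role, all 5 genes of ATF4 output and eIF2 dephosphorylation were lower in UKE1, against 34.4% of all genes. ASNS was at -1.20, CHAC1 at -1.19, TRIB3 at -1.11 and PPP1R15B at -0.87 (adjusted p from 1.1e-09 to 2.42e-08). ATF5 (-1.03), ATF4 (-0.67) and CREB3L2 (-0.53) were lower as well. EIF2AK3 (-0.13, adjusted p = 0.152) and ATF6 (0.00, adjusted p = 0.997), the sensors at the top of 2 arms, did not pass the test. EIF2AK3 passed without untreated HEL replicate 3 (0.00939).

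Of the 10 folding and redox genes 8 were lower in UKE1, against 34.4% of all genes. Among them were PDIA4 (-1.01), MANF (-0.94), P4HB (-0.82), ERO1B (-0.64), SDF2L1 (-0.47) and PDIA6 (-0.46), with adjusted p from 4.54e-09 to 0.000133. CRELD2 (-0.16, adjusted p = 0.0279) lost its call without untreated HEL replicate 1 or 3 or untreated UKE1 replicate 2 or 3 (0.0663 to 0.0967), and after quantile normalization (0.0604) or median centring (0.136). Of the 9 degradation genes 6 were lower (34.4% of all genes), with DERL1 (-0.91), HERPUD1 (-0.87), EDEM2 (-0.50), DERL2 (-0.48) and EDEM1 (-0.46) in front. EDEM3 (-0.20, adjusted p = 0.0494) lost its call in 11 of 18 alternatives, 8 of which left out 1 array, with adjusted p of up to 0.399. Among these 8 were untreated HEL replicates 2 and 3, untreated UKE1 replicate 3, all 3 treated HEL arrays and treated UKE1 replicates 1 and 2.

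The 5 genes higher in untreated UKE1 were ERO1A (1.15, 2.22-fold, adjusted p = 1.84e-09), DERL3 (0.69), SEL1L (0.52), XBP1 (0.38) and WFS1 (0.26), the last at an adjusted p = 0.00722. XBP1 and DERL3, a derlin most abundant in secretory cells, were thus higher where most other members were lower. SYVN1, CANX and SEC61B did not pass the test (-0.12, -0.10 and -0.10, adjusted p = 0.147, 0.138 and 0.188).

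**Figure D4:**
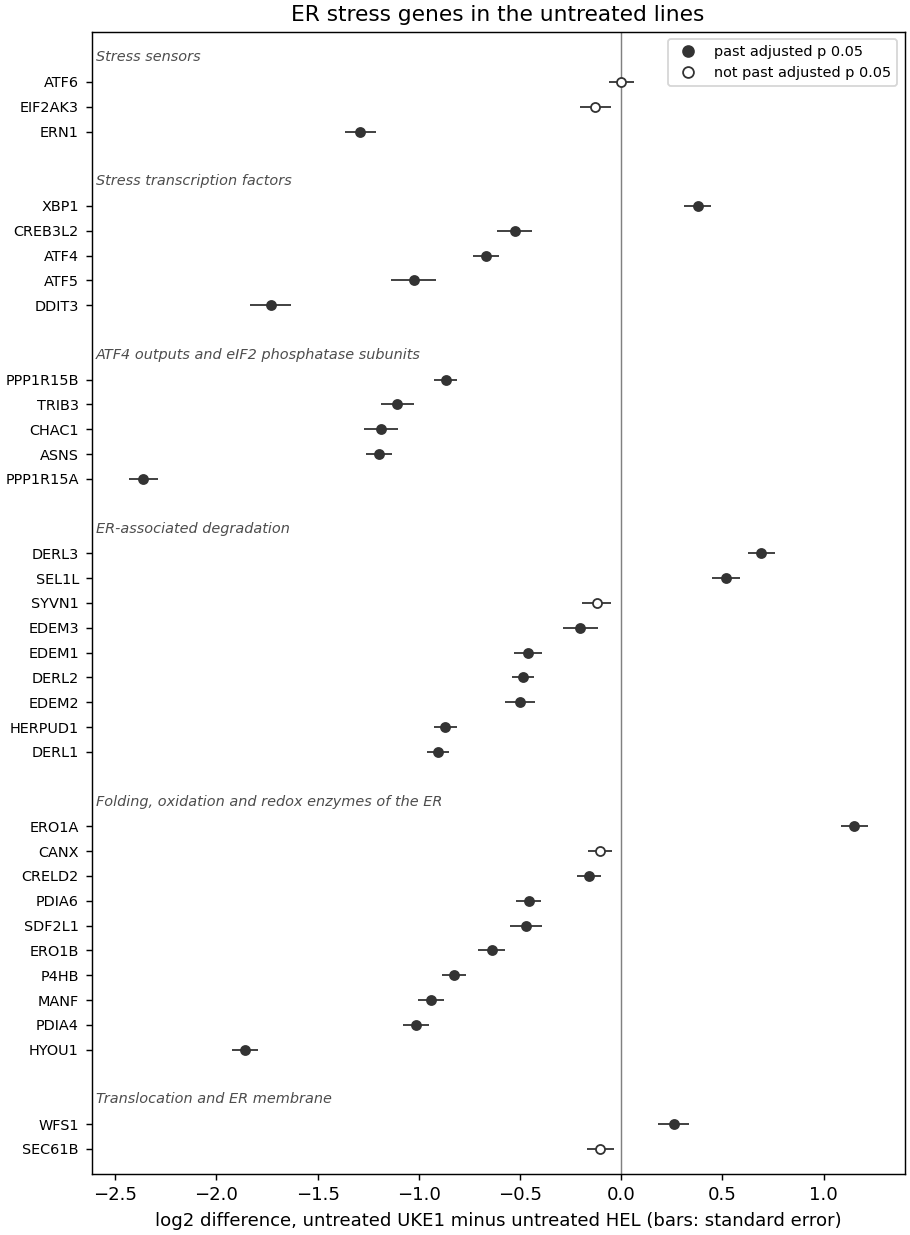
Log2 differences (untreated UKE1 minus untreated HEL) of the 34 genes, grouped by role, with standard errors of the fit as bars; filled points passed an adjusted p of 0.05. The points of 24 genes lie left of 0 and filled, with PPP1R15A at -2.36 and HYOU1 at -1.86 farthest left, and ERO1A at 1.15 is farthest right.

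Other genes of the same pathways, from lists written with results of these data already known, show how the neighbours of the 34 genes moved. Each count below stands against 22.6% of all genes that rose and 19.9% that fell in HEL, and 22% and 22.3% in UKE1. Of 8 ER chaperones of the HSP and DNAJ families, 4 rose and 1 fell in each line. DNAJC1, a DNAJ protein of the ER membrane, rose by 0.77 in HEL and 0.67 in UKE1, and HSPA13 by 0.44 and 0.73. DNAJC3, an inhibitor of PERK, rose by 0.37 in HEL and had a change of 0.12 in UKE1 (adjusted p = 0.209). HSPA5, which encodes BiP, the chaperone that holds the sensors inactive, had a change of 0.02 in HEL (adjusted p = 0.839) and fell by 0.39 in UKE1 (adjusted p = 4.71e-05).

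Of 21 other ATF4-dependent genes, 7 rose and 7 fell in HEL, and 7 rose and 3 fell in UKE1. The 6 genes described next, picked for the smallest adjusted p in HEL or in UKE1, were called in the same direction in both lines. CTH, which makes cysteine, rose by 1.07 in HEL and 0.28 in UKE1. The C/EBP partner CEBPG (-0.64 and -0.22) and the cystine carrier SLC7A11 (-0.87 and -0.65) fell. The mTORC1 inhibitors DDIT4 (0.46 and 2.07) and SESN2 (0.73 and 0.91) and the factor CEBPB (0.47 and 0.78) rose. Others on the list differed: PSAT1 fell by 0.27 in HEL (adjusted p = 0.0273) and rose by 0.48 in UKE1 (adjusted p = 0.000534). PSPH, SLC3A2 and SLC7A5 fell in HEL and were not called in UKE1. Of the 21, 6 had a more positive response in UKE1 (10.1% of all genes) and 2 a more negative one (13.8%). Of 11 genes of eIF2, its kinases and its exchange factor eIF2B, 3 rose and 4 fell in HEL, and 2 rose and 4 fell in UKE1. EIF2S2, the beta subunit of eIF2, fell by 0.92 and 0.93 in HEL and UKE1. EIF2B5, the catalytic subunit of eIF2B, fell by 0.64 and 0.71, and the amino acid-sensing kinase EIF2AK4 (GCN2) rose by 0.47 and 0.32.

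Of 5 measured genes that encode ATF6-related factors and the proteases that cut them, 3 rose and 1 fell in HEL, and 2 rose and 2 fell in UKE1. CREB3 rose by 1.41 in HEL and 1.29 in UKE1, and CREB3L1 by 0.83 and 0.29. CREB3L4 rose by 0.48 in HEL and had a change of -0.02 in UKE1 (adjusted p = 0.908). The site-2 protease MBTPS2 fell by 0.21 in HEL and 0.70 in UKE1. The site-1 protease MBTPS1 had a change of -0.16 in HEL (adjusted p = 0.054) and fell by 0.20 in UKE1. Of 18 other degradation genes, 4 rose and 6 fell in HEL, and 4 rose and 5 fell in UKE1; the 4 that rose in each line are near the share over all genes. UFD1, a partner of the extraction ATPase VCP, rose by 0.61 and 0.46. UBXN4 (-0.33 in HEL and -0.39 in UKE1) and AUP1 (-0.43 and -0.21), which recruits the ubiquitin-conjugating enzyme UBE2G2, fell in both lines. UBE2G2 fell by 0.41 in HEL and had a change of -0.11 in UKE1 (adjusted p = 0.183). Another such enzyme, UBE2J1, had a change of 0.06 in HEL (adjusted p = 0.538) and fell by 0.37 in UKE1.

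Of 19 other folding and glycan enzymes, 6 rose and 1 fell in HEL, and 8 rose and 1 fell in UKE1. ERP44, which retains ERO1 oxidases in the early secretory pathway, rose by 0.51 and 0.59, the prolyl isomerase FKBP14 by 0.57 and 0.88, and TXNDC12 by 0.49 and 0.55. Of 21 genes of the translocon, the signal recognition particle and signal peptidase, 5 rose and 9 fell in HEL, and 6 rose and 6 fell in UKE1. SEC61A2, an alternative channel subunit, rose by 1.51 and 1.24, while the receptor subunit SRPRA fell by 0.48 and 0.67. SPCS3 fell by 0.53 and 0.63, and SRPRB by 0.33 and 0.73.

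Of 13 genes of the COPII coat and export from the ER, 7 rose and 1 fell in HEL, and 9 rose and 1 fell in UKE1. SEC23A rose by 0.75 and 0.48 and the GTPase SAR1A by 0.53 and 0.47. SEC24D rose by 0.36 and 0.52, and the cargo receptor subunit MCFD2 fell by 0.32 and 0.17. Of 11 death genes linked to ER stress, 4 rose and 0 fell in HEL, and 4 rose and 3 fell in UKE1. TNFRSF10B, a TRAIL receptor induced by DDIT3, rose by 1.96 in HEL and had a change of 0.20 in UKE1 (adjusted p = 0.108). BCL2L11 rose by 1.03 and 1.08 and the calcium channel ITPR1 by 0.76 and 0.37. PMAIP1 rose by 0.85 in UKE1 and had a change of 0.03 in HEL (adjusted p = 0.807).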

How the data were processed

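Per the submitters' processing notes, the authors processed the arrays with Affymetrix Expression Console and RMA (versions: not given in the sources used here). No label states a log base; a range of 1.26 to 14.36 and array medians of 6.41 to 6.50 led to reading the authors' deposited values as log2. Of 33297 rows, GEO's platform annotation gave 19460 a single gene symbol; for 769 genes with several rows the row with the highest mean was kept, leaving 18417 genes.

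Limma 3.58.1 (lmFit and eBayes, R 4.3.3) fitted 1 mean per group over all genes and 12 arrays, with 8 residual degrees of freedom, two-sided tests and Benjamini-Hochberg adjustment. It was tested on simulated data. Replicate numbers are shared by the groups, but same-numbered arrays deviated together by r = -0.088 to 0.122, over 0.1 for 1 of 18 pairs, so no replicate block was used. Alternatives were other scalings, row choice, a filter, the variance model, the replicate block, 1 line alone and leaving out each array. The members, lists and rule for full values (sensors, factors, and called log2 changes of at least 0.5 in a drug response or in the difference between responses) were chosen with earlier results of these data known. TRIB3 is plotted for its difference between lines.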

Additional observations from a re-analysis of the deposited data

Results flagged for a closer look

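The responses of 9 of the 34 genes differed between the lines by the test of the difference itself (UKE1 minus HEL, log2, limma adjusted p under 0.05). They were lower in UKE1 for HERPUD1 (-0.90), ERO1A (-0.88), ERO1B (-0.63), XBP1 (-0.31) and DERL1 (-0.27). They were higher in UKE1 for WFS1 (0.66), ASNS (0.52), TRIB3 (0.45) and CRELD2 (0.35). HERPUD1 is the 1 gene of these that was called in opposite directions in the lines. Over all genes, 13.8% had a more negative and 10.1% a more positive response in UKE1. The 5 and 4 of 34 genes are near these shares.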

How the results depend on the processing

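Across 19 alternatives to each drug response and 18 to each other comparison, calls that held under all of them numbered 16 of 19 for HEL, 14 of 22 for UKE1, 7 of 9 for the contrast of responses and 27 of 29 for the untreated lines. Those that did not are named with the results. A trended robust variance added PDIA6 (0.0305) and P4HB (0.0454) to the contrast of responses and CANX (0.0370) to that of the untreated lines. The counts of genes called stayed within 1.5 times the reported ones, except for 3 in place of 5 genes with a more negative response in UKE1 without untreated UKE1 replicate 1 (3 to 5 over all arrays left out in turn). The replicate block gave 13 genes higher and 6 lower in HEL and 17 and 5 in UKE1, as reported, and ended 1 call, that of EDEM3 between the untreated lines (adjusted p = 0.0578). ATF6, with a difference of 0.00 between the untreated lines, was 0.17 higher in UKE1 after quantile normalization (adjusted p = 0.0258; range over its alternatives 0.0258 to 0.997); the cause was not tested. The filter on low values kept 33 of the 34 genes. Small changes are limited by 3 arrays a group, and the array does not measure splicing, translation or protein.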
